A study of Caenorhabditis elegans with 2 samples.

Results

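In young adult C. elegans, 275 of the 1537 nuclear regions bound by EGL-44::GFP lay in the outer part of a coding promoter. The summit, the position of highest signal in a region, was more than 200 bp and up to 1000 bp upstream of an annotated transcript start of a protein-coding gene. No coding start lay within 200 bp of it, and no tRNA, snoRNA, snRNA, rRNA or ncRNA gene start lay within 300 bp. The whole pooled list of both replicates held 1553 regions. Of the nuclear ones, 226 were close promoter peaks with the summit within 200 bp of a coding start, 512 were set aside because an RNA gene began nearby, and 524 lay elsewhere. The far upstream peaks belonged to 302 genes, which is 1.51% of the 19973 nuclear protein-coding genes.

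The libraries formed 1 group of 2 biological replicates. The worms were whole young adults of strain RW12173, aged 66.5 h and synchronised by starvation as L1 larvae after bleaching. They carried GFP inserted by CRISPR at egl-44 (allele st12173, with an unc-119(+) marker between loxP sites) in the unc-119(tm4063) background, and chromatin was precipitated with an antibody to GFP. Both replicates shared every allele, no second genotype or stage was compared, and signal from all tissues was summed. Counts of reads were not used here, so the depth behind a signal is unknown.

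EGL-44 is the worm TEA domain (TEAD) protein, a transcription factor whose relatives bind a short element containing CATTCC and, with the YAP coactivator, carry the output of the Hippo pathway. Together with EGL-46, a zinc finger protein, it keeps other worm neurons from taking on touch receptor fate. Many worm messages are trans-spliced: the 5' part of the primary transcript, the outron, is replaced by a spliced leader at a 3' splice acceptor. For such a gene the annotated start of the mature message can be that acceptor, and transcription then begins at an unannotated point farther upstream.

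The 3 strongest far upstream peaks were all at genes for large-subunit ribosomal proteins, and the summits of the second and the third, rpl-35 and rpl-15, are shown first because they stand near the head of the list. Each sequence covers 300 bases centred on the summit, read from the plus strand of the RefSeq genome of build WBcel235 (ce11). The windows are III:7854533-7854832 for rpl-35 and IV:654764-655063 for rpl-15. Capitals mark, within 100 bp of the summit, matches on either strand to 9 words that are named and counted farther on.
rpl-35: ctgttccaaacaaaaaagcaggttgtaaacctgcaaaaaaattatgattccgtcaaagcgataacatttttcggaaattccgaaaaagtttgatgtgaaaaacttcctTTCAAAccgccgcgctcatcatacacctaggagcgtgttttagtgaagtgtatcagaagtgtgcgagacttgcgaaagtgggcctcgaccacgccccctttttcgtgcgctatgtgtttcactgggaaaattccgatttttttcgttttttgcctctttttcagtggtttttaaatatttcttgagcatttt
rpl-15: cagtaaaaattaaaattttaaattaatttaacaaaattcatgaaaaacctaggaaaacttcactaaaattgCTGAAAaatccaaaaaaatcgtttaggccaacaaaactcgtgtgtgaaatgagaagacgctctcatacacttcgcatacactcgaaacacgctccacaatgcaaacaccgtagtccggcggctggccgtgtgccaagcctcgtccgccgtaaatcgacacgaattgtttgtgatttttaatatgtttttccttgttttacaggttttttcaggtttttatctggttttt
Neither window held CATTCC within 100 bp of the summit. The rpl-35 window held TTTGAA as its only match, and the rpl-15 window held TTNCAG.

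In the same strong peaks the annotated start often followed a splice acceptor directly. The 30 bases that end just before the nearest start are given on the gene's strand for 4 such genes among the 11 strongest peaks, with the acceptor TTNCAG in capitals. The stretches lie at IV:654577-654606 (minus) for rpl-15, II:10033214-10033243 (minus) for mtcu-2, II:14561600-14561629 (minus) for mog-4 and X:15841542-15841571 (plus) for serp-1.1.
rpl-15: atctcgttattctaaccttttttcTTTCAG
mtcu-2: agaaaaaccagaaacaaaattaaaTTTCAG
mog-4: caattttcctgtaattatccaactTTCCAG
serp-1.1: gttccaattaaaaatatatcaattTTTCAG
The 4 stretches share the last bases of a worm 3' splice site, mostly after a run of A and T. The peak summit of these genes lay 338, 461, 270 and 293 bp farther upstream, respectively.

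The strongest of the far upstream peaks was upstream of rpl-3. Its pooled signal was 362.24, with 203.16 in replicate 1 and 166.19 in replicate 2. The rpl-35 peak (III:7854604-7854766) had a pooled signal of 302.48, with 175.83 and 126.17 in the replicates. Both genes encode cytosolic ribosomal proteins, and both peaks were high in either replicate. The rpl-15 peak (IV:654856-654990) reached 267.97 pooled, 130.51 in replicate 1 and 136.43 in replicate 2. It was the only one of the 20 strongest members whose signal was higher in replicate 2, and it also lay 476 bp upstream of K11H12.8.

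The next members belonged to genes of several nuclear and cytoplasmic functions. The peak of rpa-2, a subunit of the single-strand DNA binding protein RPA, had a pooled signal of 260.12 (148.57 and 104.61 in replicates 1 and 2) with its summit 635 bp upstream. The peak of eel-1, a HECT-type ubiquitin ligase (IV:3050395-3050577), had 255.01 (153.17 and 109.53). The peak of mog-4, a DEAH-box splicing helicase known for the germline switch from sperm to oocyte (II:14561792-14561916), had 221.01 (141.59 and 82.15). These 3 were present in each replicate's own list, with replicate 1 the higher. The peak of mtcu-2 (II:10033643-10033750), which sat in an intron of another gene, had 239.31 (137.42 and 99.19).

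Farther from the start, the peak of cbp-1, the worm p300/CBP histone acetyltransferase (III:9765580-9765695), had a pooled signal of 198.08 (130.98 and 68.4) with its summit 859 bp upstream. The peak of wip-1, a WASP-interacting protein (III:5018270-5018393), lay nearer, with its summit 299 bp upstream, and had 194.06 (121.99 and 74.83). It was shared with larp-1, an RNA-binding La-related protein, whose start lay 690 bp away. The cbp-1 and wip-1 peaks had a wider gap between replicates than rpl-3. The other members of the 20 strongest, with pooled signals from 155.54 to 206.76, lay upstream of F16G10.6, serp-1.1, F02E9.5, Y54G11A.2, nspc-17, plrg-1 (a spliceosome component), vig-1 (a component of the RNA-induced silencing complex), T28F4.5, Y22D7AL.10, K12H4.5 and cpt-2 (a carnitine palmitoyltransferase). The Y22D7AL.10 peak lay between that gene and hsp-60, the mitochondrial chaperonin, 590 bp from the hsp-60 start.

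**Figure D1:**
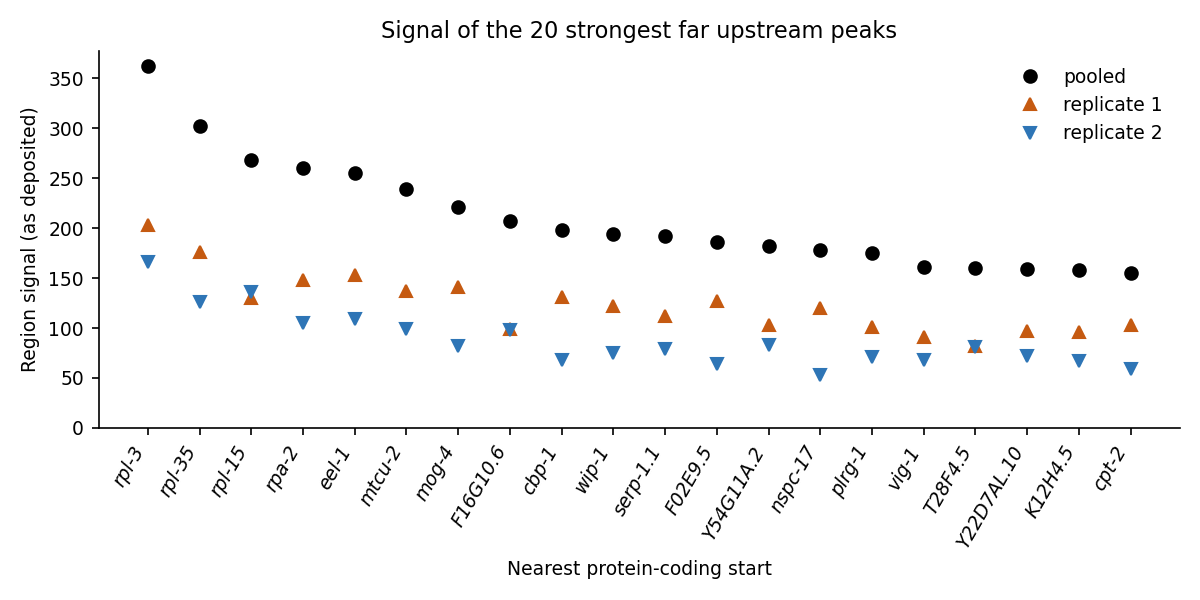
Signal of the 20 strongest far upstream peaks in the pooled list and in each replicate (x axis, nearest gene; y axis, signal as deposited). Pooled values run from 155.54 at cpt-2 to 362.24 at rpl-3, and only at rpl-15 is the replicate 2 point above the replicate 1 point.

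Below these leaders the signals were close together. Over all 275 members the pooled signal ran from 2.51 to 362.24, with a median of 79.62 and quartiles of 67.31 and 100.92. The close promoter peaks had a median of 80.64 and quartiles of 69.2 and 96.53. Of the far upstream peaks, 47.64% were above the nuclear median of 81.0, against 48.67% of the close ones (odds ratio 0.96, 95% bounds 0.664 and 1.39, Fisher's exact test, two-sided, adjusted p = 0.8575). The 11 members narrower than the usual width of 310 bp were all among the 20 strongest, with a median signal of 239.3 against 78.43 in the 264 full-width ones.

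Nearly all members of low signal overlapped another region. Of the 22 members with a signal under 40, 21 overlapped another region of the pooled list, whose summit lay 199 to 239 bp away. In all, 38 of the 275 overlapped another pooled region. The 237 without overlap had a median signal of 83.13 and a lowest value of 34.92, at scyl-1. Leaving out the overlapping regions changed no call below.

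Each replicate's own list held some of the members. Any overlap with a listed region counted, here and for the conservative list. A weak member beside a strong peak could thus be counted, such as 1 at spc-1 (2.59, counted in both lists) beside a peak of 132.14 at the same gene. Of the 275, 62 (22.55%, 95% Wilson interval 18.0 to 27.8) were in both lists, which is near the 23.2% of all nuclear peaks. A further 79 (28.73%) were only in the list of replicate 1, 19 (6.91%) only in that of replicate 2 and 115 (41.82%) in neither. Over all nuclear peaks these shares were 23.88%, 11.0% and 41.96%. The members in both lists had a median pooled signal of 133.5, those only in replicate 1's list 85.2, those only in replicate 2's 90.63 and those in neither 68.51. All of the 20 strongest were in both lists and in the conservative list. Close promoter peaks were in both lists in 36 of 226 cases (15.93%), and the difference did not pass the test (odds ratio 1.54, bounds 0.954 and 2.50, Fisher's exact test, adjusted p = 0.1081). The conservative list held 220 of the far peaks (80.0%) and 175 of the close ones (77.43%), with an odds ratio of 1.17 (bounds 0.740 and 1.83, exact adjusted p = 0.5835).

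Ranked signals showed how far the replicates moved together. A region of both replicates' full ranked lists overlapped 272 of the 275 members. Over these, replicate 1 ran from 3.51 to 203.16 with a median of 49.5, and replicate 2 from 6.63 to 166.19 with a median of 36.03. Replicate 1 was the higher in 224 of 272, with a median ratio of 1.38, but how signals were scaled between the lists is not stated. Spearman's rho was 0.41 and Pearson's r of the log2 signals 0.47 over the 272 regions, which come from the same pair of libraries and were chosen for their pooled signal.

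**Figure D2:**
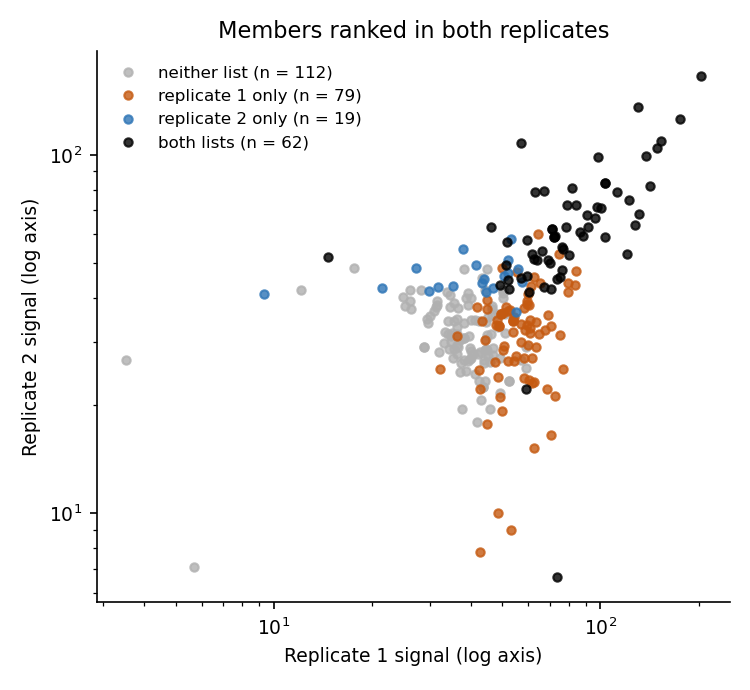
Signal in replicate 1 (x axis) and replicate 2 (y axis), both as deposited and on log scales, for the 272 far upstream peaks ranked in both, coloured by the replicates' own lists that hold them. The members of both lists, 62 in all, had pooled signals from 2.59 at spc-1 to 362.24 at rpl-3, which is the farthest point.

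The peaks crowded toward the inner edge of the window. The median summit lay 431 bp upstream of the nearest start (quartiles 286.5 and 699.5), against 590 bp in the 11457 weaker far upstream regions, which obey the same rule but missed the reproducibility limit. Between 200 and 400 bp lay 122 members (44.36%), where the weaker regions had 26.55%. The next 3 steps of 200 bp held 58, 55 and 40 members. The median signal was 83.2 in the innermost step and 74.8 in the outermost, and 29 of 122 and 8 of 40 were in both lists. Signal thus differed little across the window while the number of peaks fell.

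**Figure D3:**
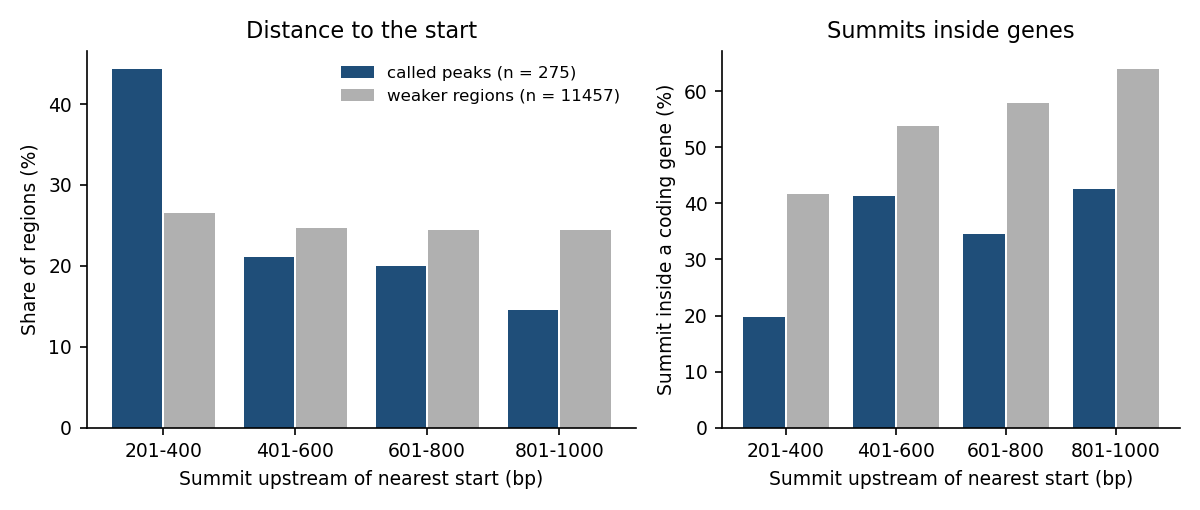
Share of called far upstream peaks and of weaker regions (y axis, percent of each set) by distance of the summit upstream of the nearest coding start (x axis, bp). The called peaks hold 44.36% in the innermost step against 26.55% of the weaker regions, and 14.55% against 24.39% in the outermost.

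At the edges of the window the signals on either side overlapped. Just inside the inner limit lay B0507.3 (signal 101.06), zip-2 (202 bp, 74.34), tmed-10 (204 bp, 67.72), pole-1 (207 bp, 61.11) and plrg-1 (208 bp, 174.67). Just outside it lay klp-13 (200 bp, 76.03), epg-7 (198 bp, 119.68), trap-1 (196 bp, 88.73), F53B3.5 (196 bp, 62.79) and mekk-3 (194 bp, 128.18). Near the outer limit, mstr-1 (997 bp, 100.83), srh-2 (995 bp, 84.63), osgn-1 (995 bp, 77.18), fbxb-58 (993 bp, 150.67) and R09E10.1 (990 bp, 17.65) were members. Beyond it, acer-1 (1013 bp, 112.1), mtm-3 (1013 bp, 85.17), pfn-1 (1015 bp, 76.72), cec-1 (1021 bp, 82.57) and epg-9 (1023 bp, 158.2) were not.

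Starts that follow a splice acceptor were frequent downstream of these peaks. The nearest start came directly after TTNCAG in 36.73% of the far upstream peaks (Wilson interval 31.2 to 42.6) and in 44 of 226 close ones (19.47%, 14.8 to 25.1). The odds ratio was 2.40 (bounds 1.57 and 3.71, Fisher's exact test, adjusted p = 5.431e-05). The share in the weaker far regions was 20.18% and over all 29773 distinct coding starts 17.81%. The far upstream share was thus the highest of these 4, and its genes included rpl-15, mtcu-2, mog-4 and serp-1.1, shown above.

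The share changed along the promoter, in steps chosen after the values were seen. Within 100 bp upstream, 6 of 74 called peaks (8.11%) had such a start, against 16.1% of weaker regions. From there to 200 bp it was 28 of 89 (31.5%), and between 200 and 300 bp 39 of 77 (50.65%, interval 39.7 to 61.5), against 20.7% of weaker regions. It was 44.4% between 300 and 400 bp, 31.0% between 400 and 600 bp, 23.6% up to 800 bp and 27.5% up to 1000 bp. The weaker regions stayed between 16.1% and 22.1% throughout. With an inner limit of 300 bp, which moves the peaks between 200 and 300 bp into the close set, the odds ratio against close peaks was 1.22 (exact adjusted p = 0.4803) and the call was lost.

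**Figure D4:**
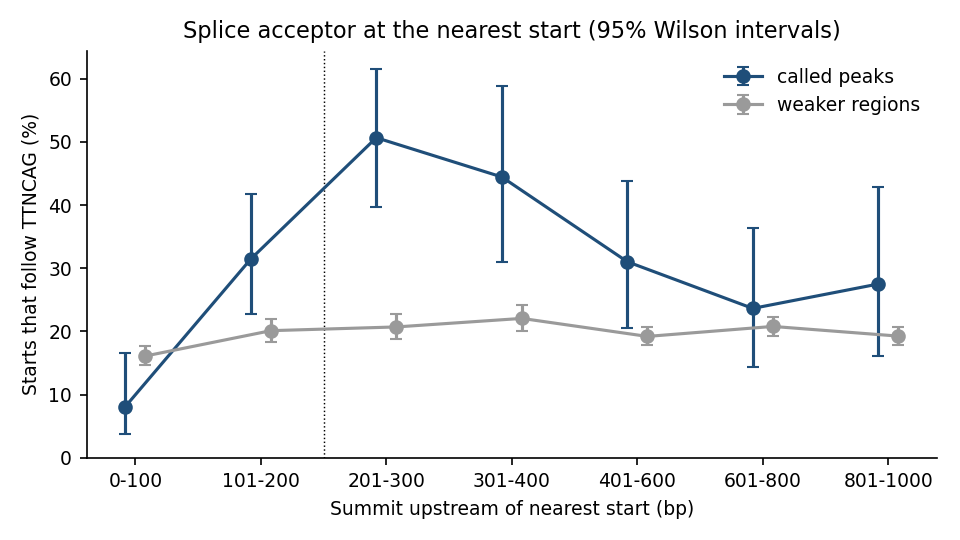
Share of regions whose nearest coding start directly follows TTNCAG (y axis, percent, bars 95% Wilson intervals) by distance of the summit upstream (x axis, bp), for called peaks and weaker regions. Called peaks reach 50.65% between 200 and 300 bp, while weaker regions stay between 16.1% and 22.1%.

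Most far upstream peaks lay between genes. The summit was between genes in 191 members (69.45%), in an intron in 51, in a coding exon in 24, in a 3' UTR in 5 and in a 5' UTR in 4. Most close promoter peaks also lay between genes, 141 of 226 (62.39%). A coding gene covered 84 of 275 summits (30.55%) and 6199 of 11457 summits of weaker far upstream regions (54.11%), an odds ratio of 0.373 (bounds 0.284 and 0.486, Fisher's exact test, adjusted p = 6.003e-14). Distance moved with this share, which was 19.67% for members between 200 and 400 bp and 42.5% beyond 800 bp. The weaker regions had 41.75% and 63.99% in those steps, so the called share was the lower in either.

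Peaks between head-to-head neighbours, whatever the distance to the second gene, had the highest median signal. Members between neighbours on opposite strands, 96 in all, had a median signal of 92.58 and were in both lists in 32.29% of cases. The 95 between neighbours on the same strand had a median of 78.09 and 18.95%. The 41 inside another gene had 74.56 and 19.51%, and the 43 inside a transcript of the gene they precede had 74.38 and 11.63%. These are descriptions, and layout and distance moved together.

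Some peaks lay between the starts of a pair of genes read in opposite directions. The starts of 2 genes on opposite strands lay within 1000 bp of the summit, one on each side, in 40 of 275 members (14.55%) and in 5.51% of weaker regions (odds ratio 2.92, bounds 2.01 and 4.14, Fisher's exact test, adjusted p = 1.692e-07). With an inner limit of 300 bp it was 1.96 and no longer passed (exact adjusted p = 0.07145). These 40 peaks had a median signal of 94.52, against 77.21 in the rest. Among them rps-23, a small-subunit ribosomal protein, and dpm-3, a subunit of dolichol-phosphate mannose synthase, lay 265 and 269 bp from a peak of 119.26. The genes gmps-1, a GMP synthetase, and cap-2, an actin capping subunit, lay 227 and 249 bp from a peak of 107.65. At ubc-6 and aka-1 the peak was 130.68, and at npp-6, a nucleoporin, and spd-5, a centrosome scaffold, it was 145.63.

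Most genes had a single far upstream peak. Of the 302 genes, 19 had 2 such peaks, and in 14 of the 19 the regions overlapped. The peaks of 232 members lay in the window of 1 gene, 40 in that of 2 and 3 in that of 3 genes. The gene of 13 members also had a close peak. The nearest other pooled summit was within 1000 bp for 67 members, and its median distance was 9971 bp.

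The peaks were spread over all 6 chromosomes, with 36 (13.09%) on X. On the autosomes, 48.12% of 239 members lay on the arms, the outer 30% at either end, against 59.74% of 9931 weaker regions (odds ratio 0.625, bounds 0.479 and 0.815, Fisher's exact test, adjusted p = 0.00078). In the list of replicate 2 alone the odds ratio was 0.652 and did not pass (exact adjusted p = 0.1282). A miRNA, piRNA, lincRNA, antisense RNA or pseudogene began within 300 bp of 12 members (4.36%, against 2.57% of weaker regions; odds ratio 1.73, exact adjusted p = 0.1081). These were 5 piRNA genes, 6 pseudogenes and 1 miRNA gene.

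The TEAD word CATTCC was scarce at the strong members. It lay within 100 bp of the summit, on either strand, in 17 of 275 far upstream peaks (6.18%, Wilson interval 3.9 to 9.7). The share was 7.96% in close peaks, 9.69% in weaker far upstream regions and 9.72% at all coding starts in a window of the same length. None of the 100 strongest members held it, 8 of the next 100 did, and 9 of the last 75 did. These rank steps were not planned in advance. The highest signal among the 17 was 89.48, at lgg-2 (an LC3-like autophagy protein). Only the member at pck-2 (a phosphoenolpyruvate carboxykinase) overlapped regions of both replicates' lists. A close pck-2 peak of 180.48 was in both lists as well, and whether the listed regions belong to that close peak was not tested. A match is a description and not a bound site, and the peaks' GC content differed from the weaker regions', 45.85% ± 6.89 (SD, n = 275 regions) against 38.89%.

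The 3 strongest matches are shown on the strand that reads CATTCC, in capitals, with 12 bases on either side. They lie at IV:10936034-10936063 (minus) for lgg-2, X:13159242-13159271 (minus) for mob-2, a regulator of NDR kinases, and IV:4513719-4513748 (minus) for sar-1, a GTPase of vesicle budding.
lgg-2: ttccctctgtccCATTCCctttcacctgtc
mob-2: cccttgtgccccCATTCCtttccaattgat
sar-1: gcgtattttctcCATTCCgcacggaaagcg
The matches of mob-2 and sar-1 belonged to peaks of 89.36 and 84.43. Touch receptor channel subunit mec-6 had a further match, at a peak of 78.89, and so had the fatty acid desaturase genes fat-3 and fat-6.

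Other words were more frequent than at weaker regions. GAGAGA lay near 94 members (34.18%), against 30.09% of close peaks, 13.49% of weaker far regions and 13.93% of all coding starts. CCCGCC lay near 40 (14.55%), against 14.16%, 5.37% and 3.97%. The E-box CACGTG lay near 22 (8.0%), against 14.16%, 4.84% and 4.32%. Far and close peaks thus shared a high content of GAGAGA and CCCGCC. A pair of A- and T-rich words went the other way. TATAAA lay near 31 members (11.27%), against 15.49% of close peaks, 17.09% of weaker regions and 23.94% of all starts. TTTGAA lay near 76 (27.64%), against 35.4%, 41.11% and 43.0%. TGATAA lay near 40 (14.55%, interval 10.9 to 19.2, against 17.04% of weaker regions), and within 50 bp its order turned, with 9.82% against 8.62%. TTNCAG lay near 112 (40.73%), against 41.59% of close peaks, 53.97% of weaker regions and 67.59% of all starts. The windows of all starts were centred on the start itself, and 17.81% of distinct starts directly follow TTNCAG. Words were counted on both strands, and no test was made, since base composition moved with the sets.

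**Figure D5:**
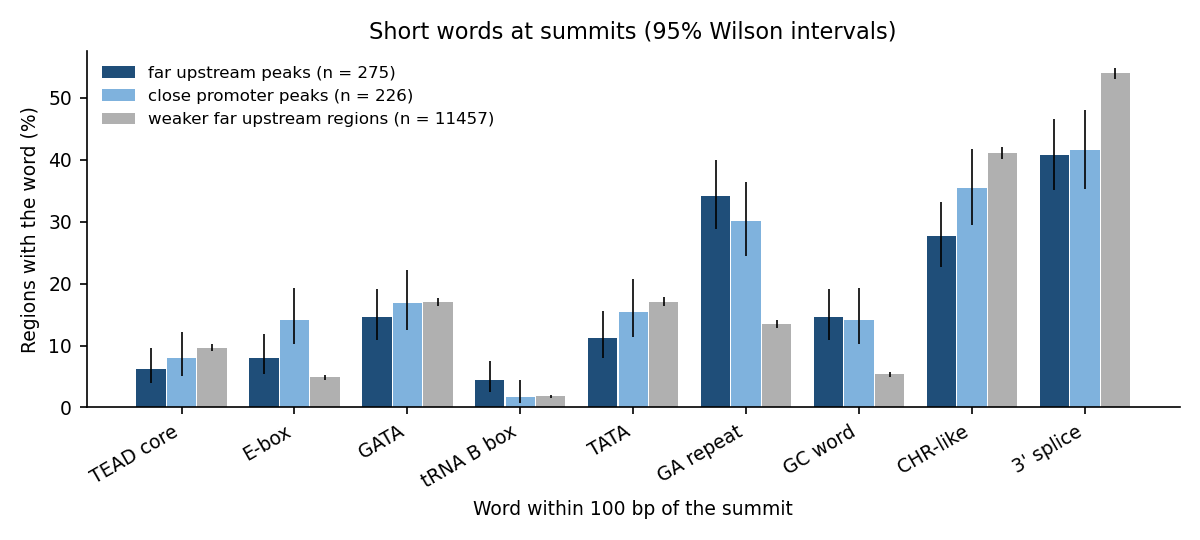
Share of regions with each of 9 words within 100 bp of the summit (y axis, percent; bars, 95% Wilson intervals) in far upstream peaks, close promoter peaks and weaker far upstream regions. GAGAGA stands at 34.18% of far upstream peaks against 13.49% of weaker regions, and CATTCC at 6.18% against 9.69%.

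The B box of RNA polymerase III promoters, GTTCGANNC, remained at 12 members (4.36%) although starts of RNA genes had been screened out. It was at 1.77% of close peaks, 1.81% of weaker regions and 1.3% of all coding starts. The 33 bases around 4 of the matches are given because they show the word at peaks with no annotated tRNA gene start nearby. They lie at X:4453310-4453342 (plus) for F02E8.4, III:1601567-1601599 (minus) for sms-3, III:3249257-3249289 (plus) for nduf-9 and V:6045348-6045380 (minus) for R01B10.3.
F02E8.4: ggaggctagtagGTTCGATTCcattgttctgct
sms-3: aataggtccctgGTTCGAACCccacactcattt
nduf-9: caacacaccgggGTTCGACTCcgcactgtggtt
R01B10.3: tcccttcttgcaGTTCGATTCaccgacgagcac
The capitals mark the B box word. The median signal of the 12 was 65.26, none was in both replicates' lists, and 2 lay at another kind of RNA gene or a pseudogene, those of nduf-9 and Y69A2AR.31.

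Genes of the ribosome were the largest group by number of genes, though not by share. Of 78 cytosolic ribosomal protein genes, 11 (14.1%) had a far upstream peak, against 1.51% of all coding genes. Those of rpl-3, rpl-35, rpl-15, rps-24 (146.58; 86.85 and 61.06 in replicates 1 and 2) and rps-23 (119.26; 66.09 and 54.0) were in both lists. The others, rps-28, rpl-39, rpl-41.2, rpl-16, rpl-1 and rpl-14, had signals from 57.12 to 93.84 and were in 1 list or none. The summits for rpl-39, rpl-16 and rpl-1 lay in coding exons, 981, 927 and 871 bp upstream. The rpl-39 peak was nearer to the start of C26F1.3, at 240 bp. Ribosomal members ran from the strongest peak to below the lower quartile of all far upstream peaks. Of 70 mitochondrial ribosomal protein genes, only mrps-21 had one. That peak was 993 bp upstream and nearer to F29B9.11, at 309 bp.

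Histone genes were next by number, with 8 of 80 on 8 peaks, all on chromosome IV. Small groups had higher shares than either, such as the fat genes with 3 of 7 and the hmg genes with 2 of 9. The fat group, like the ubc genes below, was added by a count over prefixes of gene names. The peaks of his-59 and his-56 had signals of 136.06 and 116.59 and were in both lists, and those of his-48 and his-58 had 94.07 and 92.19. The his-56 peak, 764 bp away, was nearer to F54E12.2, at 574 bp. The summits for his-59, his-61 and his-62 lay in coding exons. Histone genes are near-identical copies, so how reads were divided among them is uncertain. Chaperone genes had 4 of 59 (6.78%): hsp-60 (159.41), dnj-9 (117.94), hsp-90 (104.23) and dnj-20 (85.2). The hsp-60 and hsp-90 peaks, at genes for a mitochondrial and a cytosolic chaperone, were each shared with a neighbour and were in both lists.

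Other housekeeping groups held a few members each. Respiratory chain genes had 3 of 34 (8.82%), namely cox-5A (107.96), cyc-1 (75.71) and cox-4 (68.81). The list holds no nduf names, and nduf-9, a complex I gene, was a further member (95.87). Nuclear pore and transport genes had 3 of 37 (8.11%), with npp-6 the strongest at 145.63. TAF and Mediator genes, parts of the transcription machinery, also had 3 of 37, with taf-10 (81.36), mdt-19 (79.71) and taf-11.3 (60.61). The mdt-19 peak was 795 bp from that gene and nearer to apb-1, at 224 bp. The taf-11.3 peak was 978 bp away and nearer to sly-1, at 830 bp. The ubc genes, for ubiquitin-conjugating enzymes, had 3 of 21 (14.3%), led by ubc-6 (130.68), with ubc-25 (90.63) and ubc-3 (78.06). Translation factors had eif-3.B and eif-3.C of 33, and the vacuolar proton pump had vha-13 (93.79) and vha-8 (82.09) of 20. The vha-8 peak, 376 bp away, was nearer to C17H12.2, at 210 bp. None of 33 proteasome genes had a far upstream peak, and none of 30 genes named snr, rsp, prp or sap, which encode splicing proteins. Splicing genes with other names are outside that list, among them the members mog-4, plrg-1 and cwc-15 (67.96). These shares rest on counts of 5 or fewer genes, so single genes move them.

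Genes of development and metabolism were also represented. The lin genes had 5 of 47 (10.6%): lin-53, a histone-binding RbAp48 homologue, lin-66 (92.32), lin-13 (85.25), lin-23 (80.99), an F-box protein of a ubiquitin ligase, and lin-59 (77.87), a histone methyltransferase. The fat desaturases had 3 of 7, fat-4 (66.61), fat-3 (62.52) and fat-6 (55.64), and none of these was in either replicate's list. The unc genes had 3 of 94, led by unc-85 (125.1), a histone chaperone. Of the transcription factors, nuclear hormone receptors had 3 of 269 (1.11%), nhr-48 (135.43), nhr-49 (76.79) and nhr-35 (68.81), and the hlh genes had hlh-30 (149.09), the worm TFEB, and hlh-11 (65.67) of 25. The hmg genes had hmg-11 (71.65) and hmg-20 (71.27) of 9. The hmg-11 peak, 366 bp away, was nearer to clec-140, at 341 bp, and also counts among the C-type lectins below. The zip genes had zip-2 (74.34) of 12. No ceh homeobox gene of 63 and no ztf gene of 25 had one.

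The large families of sensory and secreted proteins had few. Chemoreceptors had 2 of 1309 (0.153%), sri-5 (99.05) and srh-2 (84.63). F-box genes had 2 of 322, C-type lectins 3 of 239 (1.26%), cuticle collagens col-52 of 156, neuropeptides ins-39 (123.02) of 140 and cytochromes P450 cyp-35A1 of 74. UDP glucuronosyltransferases (67), glutathione transferases (44) and major sperm proteins (31) had 0. These shares were near or below the 1.51% of all coding genes. The 35 listed families were chosen by name. The fat and ubc groups came from a count over name prefixes, in which each had 3 genes with a peak. Shares of fat and ubc thus partly reflect that choice. A peak counted for every gene with a start in its window, also where another gene's start was nearer. All families are given as counts with no test.

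Of 8 Hippo pathway genes, 1 had a far upstream peak, egl-44 itself. The region II:5936009-5936318 had a pooled signal of 99.54, with 49.91 in replicate 1, which had it in its own list, and 48.38 in replicate 2, which did not. Its summit lay in an intron of egl-44, 277 bp upstream of an internal start of the same gene that follows a splice acceptor. The tag was inserted at this gene, and whether that moved the signal was not tested. None of egl-46, mec-3, mec-4, mec-7 and cye-1 had a far upstream peak, while mec-6, with a peak of 78.89, was the only one of 16 mec genes that did.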

How the data were processed

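ChIP-seq of EGL-44::GFP covered 2 biological replicates of whole young adult worms; chromatin had been sonicated, per the labels. The authors deposited ranked and thresholded lists of regions for each replicate and for both together. Each region carries a signal as the authors deposited it, whose scaling between lists is not stated, and in ranked lists also a global irreproducible discovery rate (IDR), which the authors gave as −log10. The assembly was ce11, per the labels; aligner and peak caller: not given in the sources used here. Control libraries were not analysed here. A further 8 columns of input signals were not used.

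Transcript starts came from Ensembl release 115 and sequences from the RefSeq genome of WBcel235. Regions of the pooled ranked list with a global IDR above 0.01 served as weaker regions under the same rule. Replicate signals came from the overlapping ranked region with the nearest summit. Each share was set against its comparison set with a two-sided Fisher's exact test and adjusted over 8 shares by Benjamini-Hochberg, with calls at an adjusted p under 0.05, the odds ratio of the sample and 95% bounds from the exact conditional method. Regions are not independent replicates: p-values and intervals refer to these lists and not to variation among worms, and cover the counting of regions only.

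The members, families and words were chosen with earlier results of these data known. Named genes were the 20 strongest peaks, the 5 regions nearest to each edge, up to 4 members of a family with the strongest peaks, Hippo pathway genes and 5 genes tied to EGL-44. Other members of small counts, the genes shown at words or gene pairs, the short sequences and the finer acceptor steps were chosen after their values were seen. Alternatives covered the list, the IDR limit, the window, the RNA gene screen, overlaps, one start per gene, arm length and word windows. The code was tested on simulated data. The sequence at 1 of the strongest peaks is not reported here. The tools were SciPy 1.17.1 for the tests, pandas 2.3.3 and NumPy 2.4.6 for tables, and Matplotlib 3.10.9 for figures, run in Python 3.11.15.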

Additional observations from a re-analysis of the deposited data

How the results depend on the processing

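The number of far upstream peaks, 275, was 79 to 142 in the lists of single replicates, 102 at a global IDR of 0.001 or less, 157 with an outer limit of 500 bp and 417 with one of 2000 bp. With an inner limit of 300 bp, the odds ratio for splice acceptors was 1.215 (exact adjusted p = 0.4803) and that for gene pairs on opposite strands 1.955 (0.07145). Without the RNA gene screen, the share in both replicates' lists passed the test (odds ratio against close peaks 1.768, exact adjusted p = 0.004355), as did the share near other RNA genes or pseudogenes (1.844, 0.0229). The latter also passed against weaker regions above their median signal (2.156, 0.0292). The odds ratio for chromosome arms was 0.5298 to 0.6515 in the lists of single replicates, and did not pass without replicate 1. CATTCC was at 3.273% of members within 50 bp of the summit and 13.09% within 200 bp. The cause of these shifts was not tested. No odds ratio of a called share changed direction, and leaving out members with a signal under 40, an alternative chosen after seeing the data, changed no call. No paired analysis was possible because there is 1 group. Depth is unknown, which limits every signal value.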
